A study of Mus musculus with 9 samples.

Results

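In the abdominal aorta of B cell-deficient mice, 10 genes of the proteoglycan and hyaluronan matrix were followed. Of these, Dcn, Lum, Bgn, Fmod, Ogn, Prelp and Aspn encode small leucine-rich proteoglycans (SLRPs), Vcan and Hspg2 encode large matrix proteoglycans, and Has2 encodes a hyaluronan synthase, an enzyme and not a proteoglycan. They were taken by name, as every probe of the array that carried 1 of these 10 gene names, which gave 13 of 55681 probes and 10 of the 16279 genes tested. Measured values played no part in matching probes to names, but the 10 genes were chosen with earlier results of these data known. Vcan had 3 probes, Hspg2 had 2, and each of the other genes had 1.

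RNA came from whole abdominal aorta of uMT mice on the C57BL/6 strain, in 3 groups of 3 arrays, 1 array per sample. In uMT mice a disrupted IgM heavy chain gene stops B cell development, and all groups shared this genotype, so no mouse with B cells was part of the comparison. The group uMT_Ca+IgG had 0.5 M CaCl2 laid around the aorta, which provokes an abdominal aortic aneurysm, and polyclonal mouse IgG injected into the peritoneum. The group uMT_Ca had the CaCl2 alone, and the group uMT_sham had saline in its place, without IgG. Aortas were taken 7 days after CaCl2; the sources used here give neither the day for the sham group nor the dose of IgG, nor the sex or age of the mice. Nothing states that the 3 samples of a group came from separate mice. The p-values therefore reflect only how these samples varied, and part of that variation may be technical.

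SLRPs sit on collagen fibrils in the outer vessel wall, where they set fibril width and spacing, and several of them hold or release growth factors such as TGF-beta. Versican carries chondroitin sulfate chains and binds hyaluronan to form the hydrated matrix between smooth muscle cells, while perlecan, the product of Hspg2, carries heparan sulfate in basement membranes. In mice, loss of biglycan leads to dissection and rupture of the aorta.

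Levels are log2 signals relative to the 75th percentile of all probes on the same array, so a value of 0 is the signal of that percentile and 1 unit is a 2-fold step. Because probes differ in brightness, a level is compared between groups and not with that of another probe; where the gap between 2 probes of an array is given, only its change between groups is read. A change was called when its adjusted p in limma, over all 16279 genes, was under 0.05. The probe that represented each of the 10 genes was well above background on all 9 arrays, and no spot was saturated. The 75th percentile itself was 449, 455 and 270 signal units with CaCl2 plus IgG and 496, 461 and 381 with CaCl2. In sham it was 271, 302 and 267. All CaCl2 arrays and the first 2 CaCl2 plus IgG arrays thus lay above sham, so the value taken off differed by group. The third array of uMT_Ca+IgG stood apart on the second principal component, at -73.9 against 0.62 to 15.7 for the other 8 arrays. The third sham array was hybridised on a slide of its own, with the other 8 arrays together on another slide.

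Each gene was represented by its brightest probe. By that probe, Lum and Fmod rose in both CaCl2 groups, Ogn and Vcan fell in both, and Has2 passed the threshold with CaCl2 but not with CaCl2 plus IgG, with no called difference between these 2 groups. Dcn, Bgn, Prelp, Aspn and Hspg2 did not pass the test in any comparison by the brightest probe. The second kept probe of Vcan was not called, and the second probe of Hspg2 was called lower in both CaCl2 groups. In CaCl2 plus IgG against sham, 4 of the 10 genes were called, 2 higher and 2 lower, where 29.3% of all genes tested were called. In CaCl2 against sham, 5 of the 10 were called, 3 higher and 2 lower, where 36.8% of all genes were called. By direction, 14.9% of all genes were called higher and 14.4% lower with CaCl2 plus IgG, and 17.6% higher and 19.2% lower with CaCl2. At an unadjusted p under 0.05, 5 of the 10 genes passed in each comparison, where 42.1% of all genes did with CaCl2 plus IgG and 48.4% with CaCl2. The arrays did not overlap for 5 of the 10 genes with CaCl2 plus IgG and for 4 with CaCl2, where 44.5% and 56.7% of all genes did not. These shares are near their backgrounds, so the counts are not a result about these genes. Their median log2 change was 0.03 in both comparisons, beside -0.09 over all genes for CaCl2 plus IgG and -0.08 for CaCl2. Both comparisons use the same sham arrays.

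**Figure D1:**
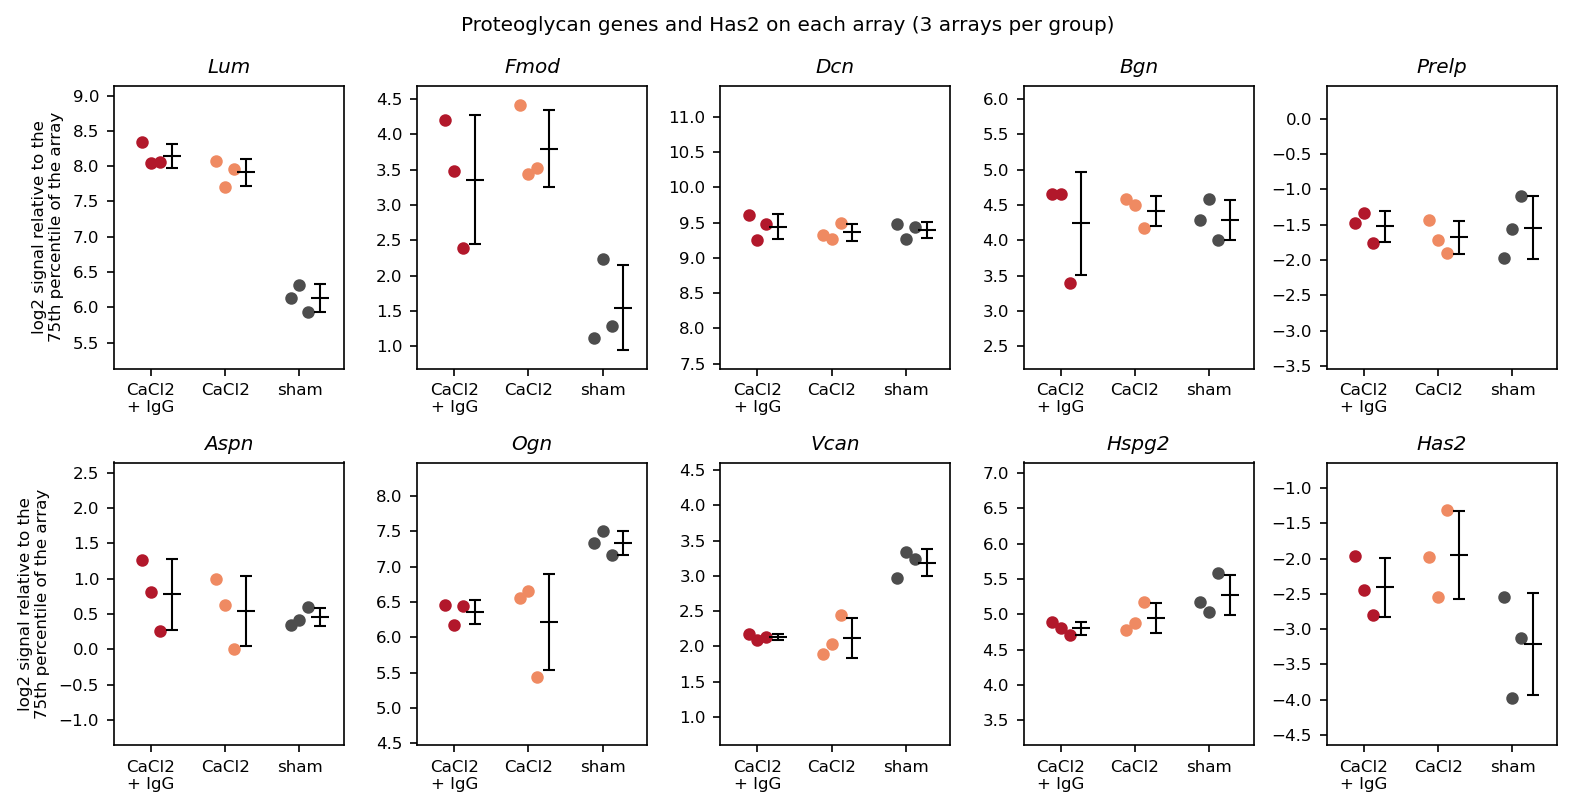
Log2 signal of the 10 genes relative to the 75th percentile of the array, 1 point per array for uMT_Ca+IgG, uMT_Ca and uMT_sham (3 each), with the mean and SD beside the points. Every panel spans 4 log2 units; the CaCl2 arrays of both groups lie above sham for Lum and Fmod and below sham for Ogn and Vcan.

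Lumican, the keratan sulfate SLRP that spaces fibrils in the cornea, had the smallest adjusted p of the 10 against sham in both comparisons. Lum read 8.34, 8.04 and 8.06 with CaCl2 plus IgG, 8.08, 7.70 and 7.96 with CaCl2, and 6.14, 6.32 and 5.93 in sham. All 6 CaCl2 arrays lay above all 3 sham arrays, and the 2 CaCl2 groups overlapped. The means were 8.15 ± 0.17 with CaCl2 plus IgG, 7.91 ± 0.19 with CaCl2 and 6.13 ± 0.19 in sham (SD, n = 3 each). Lum was 4.05-fold higher with CaCl2 plus IgG than in sham, a log2 change of 2.02 ± 0.16 (SE, adjusted p = 0.000344). It was 3.45-fold higher with CaCl2 than in sham, a log2 change of 1.79 ± 0.16 (SE, adjusted p = 0.000446). Both calls were kept under all 21 other settings tried, with adjusted p of at most 0.00228 for CaCl2 plus IgG and 0.00301 for CaCl2. Among these settings, the first slide only and leaving out the third sham array are the same fit, so every tally out of 21 counts it 2 times.

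Fibromodulin, a close relative of lumican that binds collagen I and guides its cross-linking, rose by a similar fold but with a wider spread. Fmod read 4.21, 3.48 and 2.39 with CaCl2 plus IgG, 4.42, 3.44 and 3.53 with CaCl2, and 1.12, 2.23 and 1.29 in sham. The highest sham array, at 2.23, came close to the lowest CaCl2 plus IgG array, at 2.39, without reaching it. Fmod was 3.52-fold higher with CaCl2 plus IgG (log2 change 1.81 ± 0.50 SE, adjusted p = 0.0270) and 4.77-fold higher with CaCl2 (2.25 ± 0.50 SE, adjusted p = 0.0102), each against sham. With the slide row as a block, the change with CaCl2 was 1.96 (adjusted p = 0.0629; 0.00212 to 0.0629 over 21 settings). The change with CaCl2 plus IgG missed the threshold without the first sham array (1.60), the third sham array (1.69), or the first (1.39) or second (1.75) CaCl2 plus IgG array. Without the CaCl2 plus IgG array that stood apart it was 2.30 (adjusted p = 0.00518; 0.00354 to 0.0838 over 21 settings).

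The window before the Fmod start site is shown with those of Ogn and Vcan, since these 3 are the called members whose windows the promoter table holds. Windows of 250 bases before the start were taken from RefSeq on mouse build GRCm38.p6, at chr1:134037004-134037253 (plus strand) for Fmod, chr13:49607765-49608014 (plus strand) for Ogn and chr13:89742513-89742762 (minus strand) for Vcan. Of the 10 genes, 7 matched a window. Capitals mark TATAAA, the core of a TATA box, and GGGCGG, the core of a GC box, on either strand.
Fmod: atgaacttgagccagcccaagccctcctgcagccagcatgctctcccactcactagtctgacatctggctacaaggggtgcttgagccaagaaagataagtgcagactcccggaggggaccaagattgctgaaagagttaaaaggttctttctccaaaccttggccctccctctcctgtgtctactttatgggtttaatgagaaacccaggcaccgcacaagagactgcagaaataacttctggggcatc
Ogn: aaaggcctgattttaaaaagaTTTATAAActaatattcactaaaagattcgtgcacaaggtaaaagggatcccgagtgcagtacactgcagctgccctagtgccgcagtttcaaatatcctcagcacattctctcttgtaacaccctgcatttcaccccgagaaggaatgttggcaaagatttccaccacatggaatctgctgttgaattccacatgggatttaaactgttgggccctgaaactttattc
Vcan: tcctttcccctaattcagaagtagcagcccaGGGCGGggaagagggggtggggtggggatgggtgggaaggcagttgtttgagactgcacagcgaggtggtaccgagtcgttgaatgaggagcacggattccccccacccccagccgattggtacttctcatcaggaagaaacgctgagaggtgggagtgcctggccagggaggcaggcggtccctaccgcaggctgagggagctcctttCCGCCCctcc
The Fmod window held neither motif. The Ogn window held TATAAA once on each strand, and the 2 matches overlap each other in the capitals. The Vcan window held GGGCGG once on each strand, near either end of the window. Across all 32851 windows of the table, TATAAA was in 12.4% and GGGCGG in 32.7%. GGGCGG was also in the windows of Bgn and Hspg2, and TATAAA in that of Aspn. None of these genes was called by its brightest probe, although the second Hspg2 probe was called lower in both comparisons with sham. TGANTCA, the AP-1 motif, and the CArG box of serum response factor were in 6.75% and 1.47% of all windows and in 0 of the 7. G and C made up 62.4% of the Vcan window, 51.2% of the Fmod window and 42.0% of the Ogn window, beside a median of 52.4% over all windows.

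Decorin, which binds collagen I and TGF-beta and is widely used as a fibroblast marker, did not differ beyond the spread between arrays. Dcn read 9.60, 9.25 and 9.48 with CaCl2 plus IgG, 9.32, 9.27 and 9.49 with CaCl2, and 9.48, 9.26 and 9.44 in sham. The 3 groups covered nearly the same range. The log2 change from sham was 0.05 with CaCl2 plus IgG (95% interval -0.27 to 0.37, adjusted p = 0.816) and -0.04 with CaCl2 (-0.35 to 0.28, adjusted p = 0.860). This depended on scaling. Quantile normalization gave a called change of 0.50 with CaCl2 (adjusted p = 0.0198). The authors' deposited series table gave the same size, but its columns look quantile-normalized, so it is not separate support. Scaling to the array median gave 0.44 (adjusted p = 0.228; 0.0198 to 0.976 over 21 settings), and it also moved the median change of all genes with CaCl2 to 0.39.

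Biglycan, the closest relative of decorin and a ligand of Toll-like receptors, was not called either. Bgn read 4.66, 4.66 and 3.40 with CaCl2 plus IgG, 4.58, 4.50 and 4.18 with CaCl2, and 4.28, 4.58 and 4.0 in sham. The lowest of the 9 values was the CaCl2 plus IgG array that stood apart, and all groups overlapped. The log2 change from sham was -0.05 with CaCl2 plus IgG (95% interval -0.82 to 0.73) and 0.13 with CaCl2 (-0.64 to 0.91). Without that array the change with CaCl2 plus IgG was 0.37 (adjusted p = 0.174).

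Prelp, an SLRP that binds heparan sulfate of basement membranes, read -1.48, -1.33 and -1.76 with CaCl2 plus IgG, -1.43, -1.71 and -1.90 with CaCl2, and -1.97, -1.56 and -1.09 in sham. Its only probe is listed for no RefSeq transcript, unlike the brightest probes of the other genes, so these readings may not stand for the known Prelp transcripts. The groups overlapped, with a log2 change from sham of 0.02 with CaCl2 plus IgG (95% interval -0.53 to 0.57) and -0.14 with CaCl2 (-0.69 to 0.41). Asporin, which competes with decorin for collagen, gave Aspn levels of 1.26, 0.81 and 0.26 with CaCl2 plus IgG, 0.99, 0.63 and 0.01 with CaCl2, and 0.35, 0.41 and 0.60 in sham. The sham arrays lay inside the range of both CaCl2 groups. The log2 change of Aspn was 0.32 with CaCl2 plus IgG (95% interval -0.38 to 1.02) and 0.09 with CaCl2 (-0.61 to 0.78). Of these 4 genes, Bgn and Aspn had the wider intervals and Dcn the narrowest.

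Osteoglycin, also called mimecan, fell. Ogn read 6.46, 6.17 and 6.45 with CaCl2 plus IgG, 6.56, 6.65 and 5.44 with CaCl2, and 7.33, 7.51 and 7.16 in sham. Every CaCl2 array of either group lay below every sham array. Ogn was 1.96-fold lower with CaCl2 plus IgG (log2 change -0.97 ± 0.30 SE, adjusted p = 0.0428) and 2.17-fold lower with CaCl2 (-1.12 ± 0.30 SE, adjusted p = 0.0222). The call with CaCl2 plus IgG was lost under 13 of 21 settings, with values of -0.73 to -1.06, and without the array that stood apart it was -1.02 (adjusted p = 0.0503). The call with CaCl2 was lost under 4 of 21, namely with median scaling (-0.64), with the slide row as a block (-1.08), and without the first (-1.12) or second (-1.03) sham array. Without the third CaCl2 array, the lowest of its group, the change with CaCl2 was -0.73 (adjusted p = 0.0202).

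**Figure D2:**
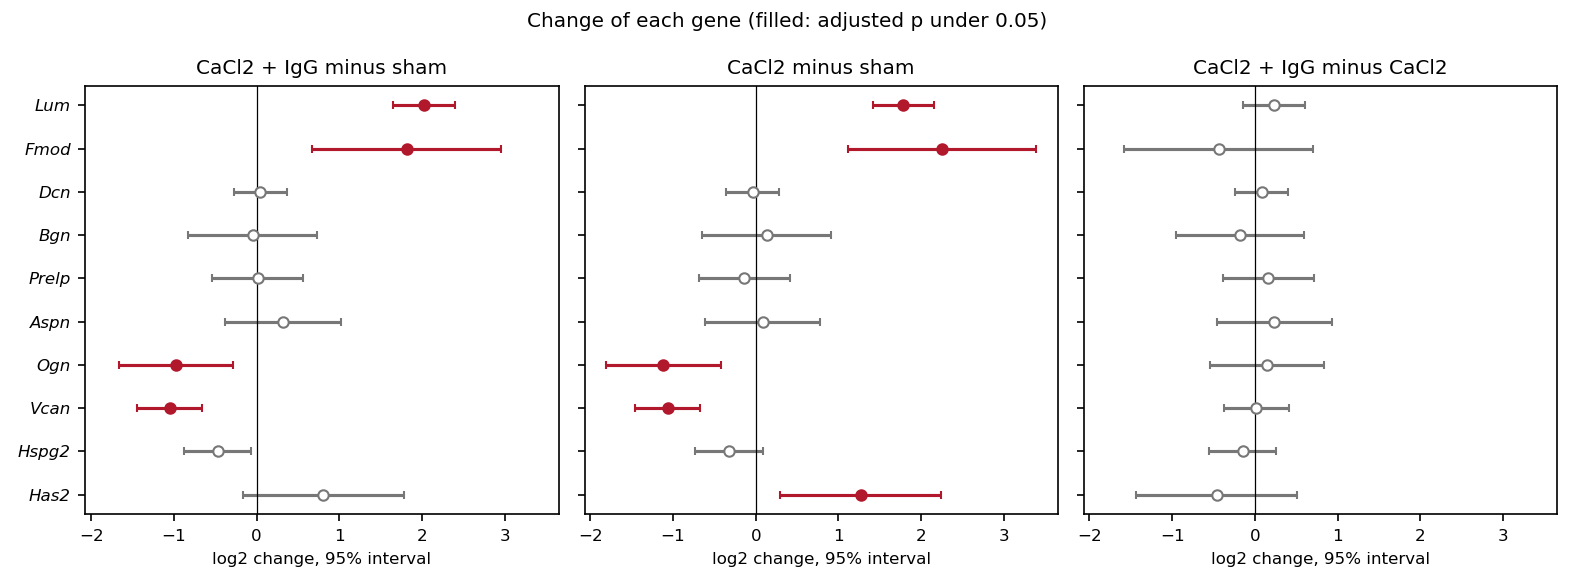
Log2 change of each gene with its 95% interval from the limma fit, for CaCl2 plus IgG minus sham, CaCl2 minus sham and CaCl2 plus IgG minus CaCl2; filled points have an adjusted p under 0.05. Lum has the narrowest interval away from 0 on the higher side in both comparisons with sham, and all 10 intervals in the panel of the IgG comparison cross 0.

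Versican gave different readings by its probes. The brightest probe, at transcript base 12207 (mm9 chr13:89795080-89795139, minus strand), read 2.18, 2.09 and 2.13 with CaCl2 plus IgG, 1.89, 2.03 and 2.44 with CaCl2, and 2.97, 3.34 and 3.24 in sham. All 6 CaCl2 arrays lay below all 3 sham arrays. By this probe Vcan was 2.07-fold lower with CaCl2 plus IgG (log2 change -1.05 ± 0.17 SE, adjusted p = 0.00325) and 2.09-fold lower with CaCl2 (-1.07 ± 0.17 SE, adjusted p = 0.00275). With median scaling neither change passed, at -0.81 with CaCl2 plus IgG (adjusted p = 0.0729) and -0.59 with CaCl2 (adjusted p = 0.138).

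The second Vcan probe lies at base 1428 (mm9 chr13:89851810-89851869, minus strand), upstream of the first on the genome. The files tie it to 4 RefSeq transcripts, 3 of which the first probe also carries. These 2 probes are named for different transcripts, so their base positions need not be counted on the same one, and they cover partly different sets of transcripts. It is shown with the second Hspg2 probe because these 2 probes are where the readings part. Each of these 60-base probes has at least 2 reading frames without a stop codon; whether they lie in coding or untranslated exons was not looked up, as no genome was used.
Vcan, base 1428: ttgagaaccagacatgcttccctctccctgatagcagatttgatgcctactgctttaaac
Hspg2, base 13076: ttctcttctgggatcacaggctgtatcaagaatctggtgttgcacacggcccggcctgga
The Vcan probe at base 1428 read 0.36, 0.24 and 0.14 with CaCl2 plus IgG, -0.08, -0.63 and 0.65 with CaCl2, and -0.40, -0.21 and -0.29 in sham. The CaCl2 plus IgG arrays lay above sham, while the CaCl2 arrays spread to both sides of it. In a fit over all kept probes, its log2 change was 0.54 with CaCl2 plus IgG (adjusted p = 0.197) and 0.28 with CaCl2 (adjusted p = 0.467), neither called. Within each array, the signal at base 12207 exceeded that at base 1428 by a mean of 1.89 with CaCl2 plus IgG, 2.14 with CaCl2 and 3.48 in sham. This gap was smaller on every CaCl2 array than on every sham array, by 1.59 with CaCl2 plus IgG and by 1.35 with CaCl2. An exact two-sided permutation test gave p = 0.1 for each, the smallest p that 3 arrays against 3 allow, and 0.15 after adjustment over 18 such comparisons. The third Vcan probe, at base 3166 and listed for 1 transcript only, was well above background on 1 of 3 arrays with CaCl2 plus IgG, 2 of 3 with CaCl2 and 0 of 3 in sham, and was not tested. The mean of the 2 kept probes had a log2 change of -0.25 with CaCl2 plus IgG and -0.39 with CaCl2, and was not called.

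Perlecan also gave different readings by its probes. The brighter Hspg2 probe, at base 14023 (mm9 chr4:137126392-137126451, plus strand), read 4.89, 4.80 and 4.71 with CaCl2 plus IgG, 4.78, 4.88 and 5.18 with CaCl2, and 5.18, 5.04 and 5.59 in sham. Arrays with CaCl2 plus IgG lay below sham, and those with CaCl2 overlapped it. The log2 change was -0.47 ± 0.18 with CaCl2 plus IgG (SE, adjusted p = 0.0790) and -0.32 ± 0.18 with CaCl2 (SE, adjusted p = 0.180), and neither was called. With array weights the change with CaCl2 plus IgG was -0.39 and was called (adjusted p = 0.0471; 0.00740 to 0.647 over 21 settings), and with median scaling the change with CaCl2 was 0.15.

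The Hspg2 probe at base 13076 (mm9 chr4:137125445-137125504, plus strand) read -1.01, -1.07 and -1.31 with CaCl2 plus IgG, -1.21, -0.83 and -1.34 with CaCl2, and -0.21, 0.08 and 0.45 in sham. All 6 CaCl2 arrays lay below all sham arrays. In the fit over all kept probes its log2 change was -1.23 both with CaCl2 plus IgG (adjusted p = 0.00600) and with CaCl2 (adjusted p = 0.00527), each ± 0.21 (SE). Within each array the brighter probe exceeded it by a mean of 5.93 with CaCl2 plus IgG, 6.07 with CaCl2 and 5.16 in sham (exact permutation p = 0.1 for each against sham, adjusted 0.15). The mean of both probes passed the test, at -0.85 with CaCl2 plus IgG (adjusted p = 0.00740) and -0.78 with CaCl2 (adjusted p = 0.00930). Reading these probes singly was decided after their values were seen.

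**Figure D3:**
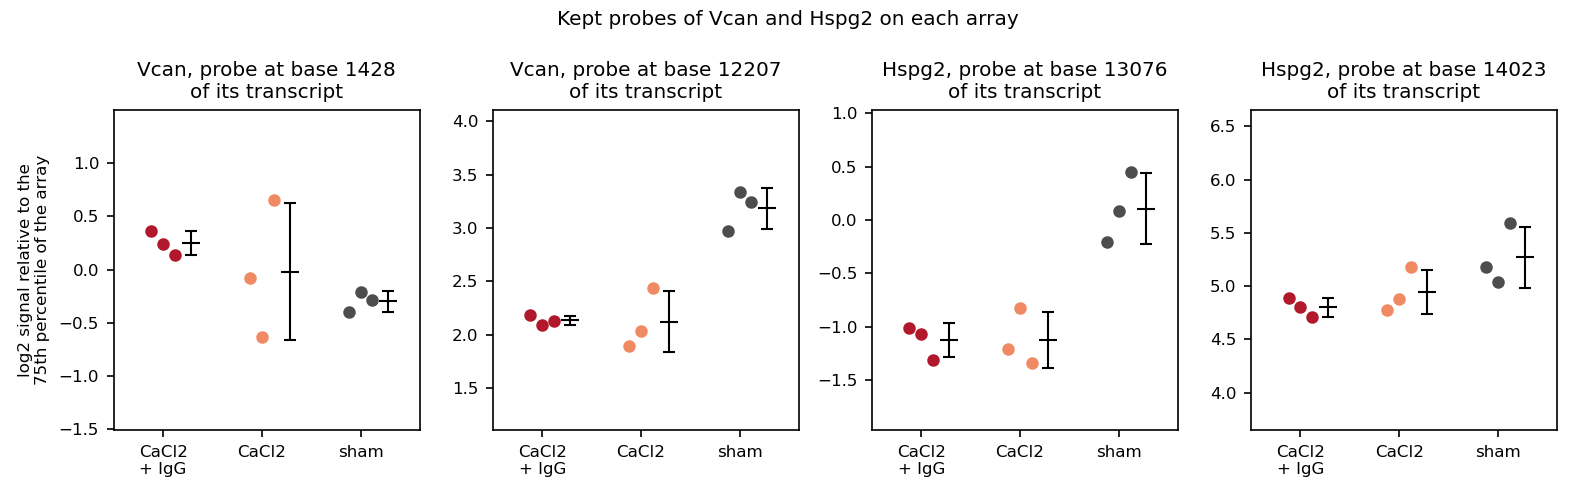
Log2 signal relative to the 75th percentile on each array for the 2 kept probes of Vcan and the 2 probes of Hspg2, with the mean and SD beside the 3 points of each group; every panel spans 3 log2 units. The CaCl2 arrays of both groups lie below sham for the Vcan probe at base 12207 and the Hspg2 probe at base 13076, but not for the Vcan probe at base 1428.

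Has2, the synthase that makes most hyaluronan in the developing heart and vessels, passed the threshold in 1 comparison only. Has2 read -1.97, -2.45 and -2.80 with CaCl2 plus IgG, -1.98, -2.55 and -1.31 with CaCl2, and -2.54, -3.97 and -3.13 in sham. The highest sham array, at -2.54, reached into both CaCl2 groups. Has2 was 2.41-fold higher with CaCl2 (log2 change 1.27 ± 0.43 SE, adjusted p = 0.0471), and its change of 0.81 ± 0.43 with CaCl2 plus IgG was not called (SE, adjusted p = 0.184). The call with CaCl2 was lost under 11 of 21 settings, over which the adjusted p ran from 0.0147 to 0.209 and the change from 0.40 to 1.74; normexp background correction gave the smallest. Among the arrays whose removal ended it, leaving out the second sham array gave 0.89 and leaving out the third CaCl2 array gave 0.95.

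With IgG added to CaCl2, none of the 10 genes was called as different from CaCl2 alone. The log2 changes ran from -0.46 for Has2 to 0.23 for Lum and Aspn, 0 of 10 genes were called, and the smallest unadjusted p was 0.191 for Lum (95% interval of its change -0.14 to 0.61). Limma called 0 of all genes in this comparison, so the background share is 0%, and 239 genes (1.47%) had an unadjusted p under 0.05. The intervals were narrow for Dcn (-0.24 to 0.40) and Vcan (-0.37 to 0.41) and wide for Fmod (-1.58 to 0.70) and Has2 (-1.44 to 0.51). Leaving out the CaCl2 plus IgG array that stood apart gave 0 calls among the 10 genes as well, with Fmod at 0.04 and Bgn at 0.24.

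On the slide that held the other 8 arrays, that is without the third sham array, the changes with CaCl2 plus IgG were 1.92 for Lum (adjusted p = 0.00155), 1.69 for Fmod (0.0836), -1.06 for Ogn (0.0756) and -1.02 for Vcan (0.0138). With CaCl2 they were 1.69 for Lum (adjusted p = 0.00184), 2.12 for Fmod (0.0378), -1.20 for Ogn (0.0464), -1.04 for Vcan (0.0120) and 1.31 for Has2 (0.0989).

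SLRP genes lie in clusters, where some neighbours changed in the same direction and others did not. Lum, Kera and Epyc on chromosome 10 were called higher in both comparisons with sham. Ecm2, Omd and Ogn on chromosome 13 had negative changes in both, not all of them called. In the RefSeq gene table of assembly GRCm38.p6, no other coding gene starts between the members of 3 such clusters, which were looked at after the values were seen. On chromosome 10 the order is Dcn, Lum, Kera, Epyc. Keratocan, the corneal keratan sulfate SLRP, was not well above background on any sham array but was on all 6 CaCl2 arrays, so its fold rests on dim sham readings. Against those readings, on the processed signals, Kera was 16.0-fold higher with CaCl2 plus IgG (adjusted p = 0.00976) and 22.8-fold higher with CaCl2 (adjusted p = 0.00523). These folds are not minimum values and do not carry over to another background treatment. Under normexp the log2 change of Kera was 1.08 with CaCl2 plus IgG and 1.32 with CaCl2, and was not called. Epyc, the cartilage SLRP epiphycan, had a log2 change of 2.79 with CaCl2 plus IgG (adjusted p = 0.0103) and 2.44 with CaCl2 (adjusted p = 0.0155). Dcn, at the other end, was not called, except with CaCl2 under quantile normalization and in the series table. Within each array the gap of Lum to Dcn moved up by 1.97 with CaCl2 plus IgG and 1.82 with CaCl2, with no overlap of arrays (exact permutation p = 0.1, adjusted 0.15). It combines the changes of Lum and Dcn already given, so it is not separate support.

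On chromosome 1 the order is Optc, Prelp, Fmod, and the outer genes moved in opposite directions. Optc, which encodes opticin of the vitreous, read 0.04, 0.12 and -1.14 with CaCl2 plus IgG, 0.13, 0.96 and 0.32 with CaCl2, and 1.87, 2.19 and 2.31 in sham. Its log2 change was -2.45 with CaCl2 plus IgG (adjusted p = 0.00211) and -1.65 with CaCl2 (adjusted p = 0.00938), while Prelp was not called and Fmod rose. The gap of Fmod to Optc moved up by 4.26 with CaCl2 plus IgG and 3.91 with CaCl2 (exact permutation p = 0.1 for each, adjusted 0.15). It likewise combines the changes of Fmod and Optc, seen before this pair was taken, and is not separate support. On chromosome 13 the order is Ecm2, Aspn, Omd, Ogn. Omd, osteomodulin of mineralised tissue, changed by -0.77 with CaCl2 plus IgG (adjusted p = 0.0970) and by -0.98 with CaCl2 (adjusted p = 0.0387). Ecm2, a decorin-like matrix gene, changed by -0.80 (adjusted p = 0.0434) and -0.70 (adjusted p = 0.0553) in these comparisons, and Aspn was not called. The calls of Ecm2 with CaCl2 plus IgG, and of Omd and Optc with CaCl2, were lost with median scaling.

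**Figure D4:**
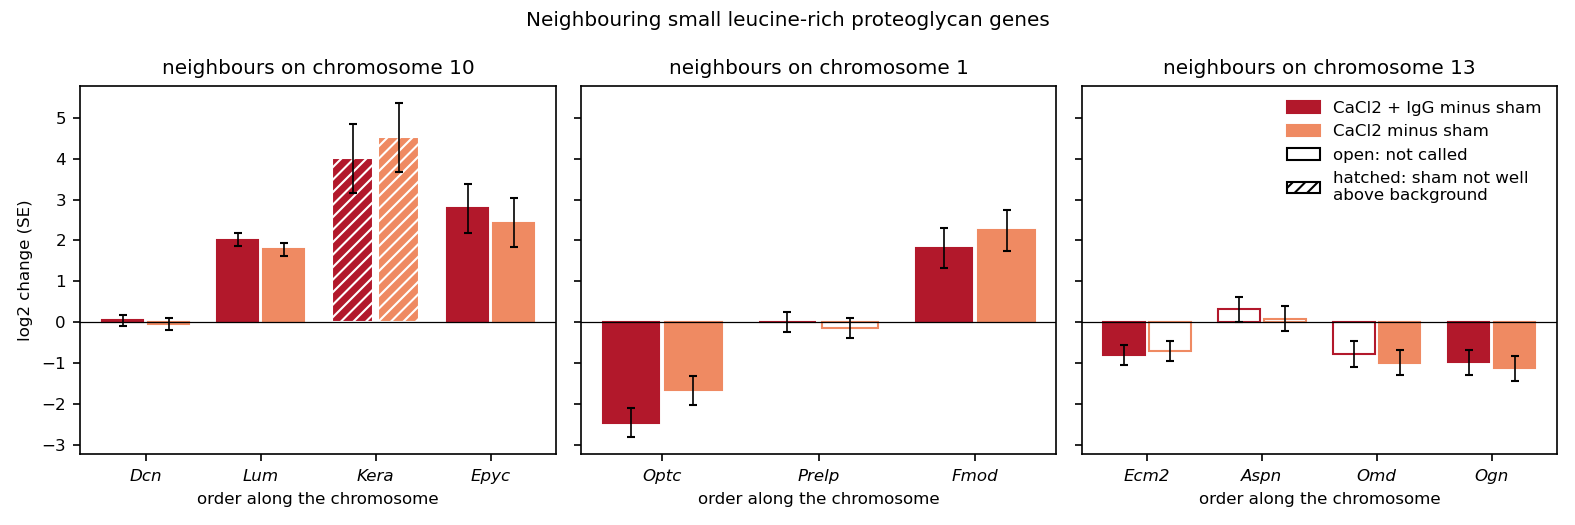
Log2 change (bars, with SE) of neighbouring SLRP genes on chromosomes 10, 1 and 13, in their order along the chromosome, for CaCl2 plus IgG minus sham and CaCl2 minus sham. Filled bars were called, open bars were not, and the hatched bars of Kera rest on sham arrays that were not well above background. Under this scaling Dcn and Prelp stay near 0 beside neighbours that moved. Quantile normalization called Dcn higher with CaCl2, and the only Prelp probe is listed for no RefSeq transcript.

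Other genes of proteoglycan biology were taken from lists. Over all genes tested, 29.3% were called with CaCl2 plus IgG (14.9% higher, 14.4% lower, median log2 change -0.09) and 36.8% with CaCl2 (17.6% higher, 19.2% lower, median -0.08), and no list was tested against these shares. Where a gene is given with a pair of values, they are its log2 changes from sham with CaCl2 plus IgG and then with CaCl2. Of 10 other SLRP genes tested, 3 were higher and 2 lower with CaCl2 plus IgG, and 3 were higher and 2 lower with CaCl2, so 5 of the 10 were called in each, beside 29.3% and 36.8% of all genes. Podnl1 was the third that rose, by 1.18 with CaCl2 plus IgG and 1.58 with CaCl2. Of 18 other proteoglycan core proteins, 6 were higher and 5 lower with CaCl2 plus IgG, and 6 were higher and 6 lower with CaCl2, or 61.1% and 66.7% called beside 29.3% and 36.8% of all genes, with medians of 0.06 and 0.07. Prg4, the joint lubricant lubricin, read 4.32, 4.42 and 4.22 with CaCl2 plus IgG, 4.79, 4.12 and 4.95 with CaCl2, and -1.78, -2.31 and -1.27 in sham. Its log2 change was 6.11 with CaCl2 plus IgG (adjusted p = 5.23e-05) and 6.41 with CaCl2 (adjusted p = 3.55e-05), with no overlap between CaCl2 and sham arrays. A second, dimmer Prg4 probe had log2 changes of only 0.55 with CaCl2 plus IgG and 0.22 with CaCl2. Acan, the cartilage proteoglycan aggrecan, rose by 2.50 and 2.90 in the same comparisons, Srgn, serglycin of blood cell granules, by 1.49 and 1.43, and Sdc3 (syndecan-3) by 1.17 and 1.36. Those that fell were Cspg4, the pericyte and smooth muscle proteoglycan NG2 (-1.62 and -1.63), Gpc3 (-1.88 and -1.20) and Col18a1 (-1.13 and -1.09). With median scaling, Cspg4, Gpc3 and Col18a1 stayed called lower with CaCl2 plus IgG, and of the 3 only Cspg4 did with CaCl2.

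Of 18 hyaluronan genes tested, 5 were higher and 6 lower with CaCl2 plus IgG, and 6 were higher and 7 lower with CaCl2. That is 61.1% and 72.2% called, beside 29.3% and 36.8% of all genes, with medians of -0.24 and -0.21. Has1, a second hyaluronan synthase, read 0.31, 0.27 and -1.26 with CaCl2 plus IgG, 0.99, -0.75 and 1.62 with CaCl2, and -3.94, -4.68 and -3.94 in sham. Every CaCl2 array was above every sham array, and the log2 change was 3.96 with CaCl2 plus IgG (adjusted p = 0.00305) and 4.81 with CaCl2 (adjusted p = 0.00131). Tnfaip6, which moves protein chains onto hyaluronan in inflamed tissue, rose by 1.57 with CaCl2 plus IgG and 2.34 with CaCl2. Stab2, a hyaluronan clearance receptor, rose by 1.45 and 1.83 by its brightest probe, but its other 2 kept probes had log2 changes of 0.14 and -0.80 with CaCl2 plus IgG and of -0.08 and -1.32 with CaCl2. Hapln1, the link protein that ties versican and aggrecan to hyaluronan, fell by 2.08 on the log2 scale with CaCl2 plus IgG (adjusted p = 0.00961) and by 2.18 with CaCl2 (adjusted p = 0.00690). Hyal1, a lysosomal hyaluronidase, changed by -1.59 and -1.57, and Itih4 by -0.85 and -1.36. With median scaling, Hapln1 and Hyal1 remained lower in each comparison, and Itih4 did not.

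Of 23 linker, chondroitin and dermatan sulfate genes, 4 were higher and 4 lower with CaCl2 plus IgG, and 4 were higher and 3 lower with CaCl2. That is 34.8% and 30.4% called, near the 29.3% and 36.8% of all genes, so the counts are not a result about this list. The chondroitin 4-sulfotransferase Chst11 rose by 1.59 with CaCl2 plus IgG and 1.74 with CaCl2, while the 6-sulfotransferase Chst3 changed by -1.47 and -1.38. Papss2, which makes the sulfate donor, changed by 0.73 and 0.56, Chst7 by 0.65 and 0.54, Dse by 0.60 and 0.74, Csgalnact1 by -0.64 and -0.79, and Ust by -0.51 and -0.65. Chsy3 changed by -1.55 with CaCl2 plus IgG (adjusted p = 0.0210) and by -0.97 with CaCl2, where it was not called. Of 16 heparan sulfate genes, 1 was higher and 1 lower with CaCl2 plus IgG, namely Ndst2 (0.58) and Ext2 (-0.70), or 12.5% called beside 29.3% of all genes. With CaCl2, 2 were higher and 4 lower, with Hpse, the heparanase that cuts the chains, at 0.91, Ndst2 at 0.70, Hs3st6 at -2.93, Hs2st1 at -1.10 and Hs3st1 at -0.94, or 37.5% called beside 36.8% of all genes. Of 8 keratan sulfate genes, 3 were higher and 1 lower with CaCl2 plus IgG, and 4 were higher and 1 lower with CaCl2, so 4 and 5 of the 8 were called beside 29.3% and 36.8% of all genes, with medians of 0.43 and 0.48. Chst2 rose by 1.16 with CaCl2 plus IgG and 1.32 with CaCl2, and St3gal1 by 0.72 and 1.21. B4galt1 rose by 0.78 and 0.83 by its brightest probe, with its other kept probe at -0.04 and -0.13. St3gal3 changed by -0.51 and -0.46, and turned to 0.01 with CaCl2 under median scaling.

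Among 23 genes of proteoglycan processing and degradation, 5 were higher and 3 lower with CaCl2 plus IgG, and 7 were higher and 4 lower with CaCl2. That is 34.8% and 47.8% called, beside 29.3% and 36.8% of all genes, with medians of 0.31 and 0.24. Adamts4, a protease that cuts aggrecan and versican, read 0.20, 0.96 and 0.30 with CaCl2 plus IgG, 1.47, 0.16 and 0.92 with CaCl2, and -2.25, -1.65 and -1.21 in sham. Its log2 change was 2.19 with CaCl2 plus IgG (adjusted p = 0.00449) and 2.55 with CaCl2 (adjusted p = 0.00225), with no overlap between CaCl2 and sham arrays. The lysosomal glycosidases Gusb (1.26 and 1.48) and Hexa (0.85 and 1.06) rose in these comparisons, and so did Bmp1 (0.91 and 0.86), which trims biglycan and procollagen, although 1 of the 3 Bmp1 probes was at 0.13 and 0.02. Adamts8 (-1.53 and -1.21), Pcolce2 (-1.34 and -1.09) and Adamts1 (-0.97 and -0.84), another protease that cuts versican, were lower in both. Idua was not called with CaCl2 plus IgG, at -0.62, and was called lower with CaCl2, at -1.37, and its second probe had changes of -0.19 with CaCl2 plus IgG and -0.13 with CaCl2. With median scaling, 1 gene stayed lower with CaCl2 plus IgG and 0 with CaCl2.

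Of 19 receptors and ligand partners, 6 were higher and 4 lower with CaCl2 plus IgG, and 7 were higher and 5 lower with CaCl2. That is 52.6% and 63.2% called, beside 29.3% and 36.8% of all genes, with medians of 0.28 and 0.18. The lipopolysaccharide receptor chain Cd14 rose by 3.15 with CaCl2 plus IgG and 3.32 with CaCl2, and Tlr2, a receptor for biglycan, by 2.06 and 2.24. Itga2, a chain of a collagen receptor, was well above background on 2 of 3 arrays with CaCl2 plus IgG, 3 of 3 with CaCl2 and 0 of 3 in sham, and was called higher in both comparisons. Under normexp its log2 change turned to -0.01 and -0.17, so no fold is given. Igf1r, a decorin receptor, changed by -0.84 and -0.83, Tgfb3 by -0.78 and -0.74, Itgb1 by -0.64 and -0.61, and Tgfb2 by -0.75 and -0.80, with Tgfb2 called in CaCl2 only. With median scaling 0 of these genes were lower in either comparison.

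Of 17 collagens and basement membrane partners, 9 were higher and 3 lower in each comparison with sham, or 70.6% called beside 29.3% of all genes with CaCl2 plus IgG and 36.8% with CaCl2. Their median log2 change was 0.82 with CaCl2 plus IgG and 0.91 with CaCl2, beside -0.09 and -0.08 over all genes. Those that rose included genes of fibrillar and fibril-associated collagens, such as Col14a1, which binds decorin (1.85 and 2.04), and Col5a2 (1.49 and 1.45), and also the laminin chain Lamb1 (1.82 and 1.94). The 3 that were lower were the basement membrane genes Col4a1 (-0.70 and -0.84), Col4a2 (-0.45 and -0.55) and Lama4 (-1.09 and -0.84). With median scaling those 3 calls were lost in both comparisons.

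**Figure D5:**
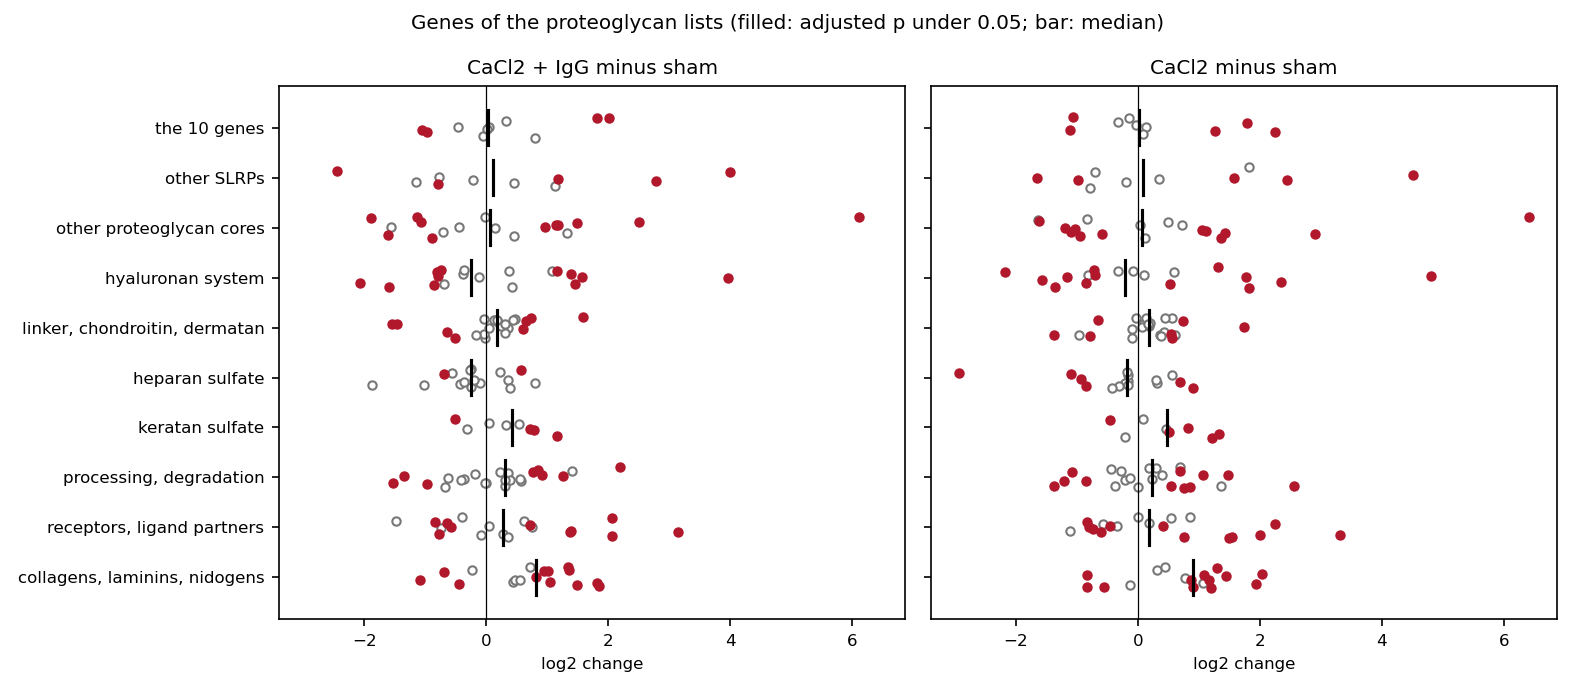
Log2 change of every tested gene of the 10 lists, 1 point per gene, for CaCl2 plus IgG minus sham and CaCl2 minus sham; filled points were called and the bar is the median of the list. Prg4 lies farthest to the right at 6.11 and 6.41, and the collagen, laminin and nidogen list has the highest median, at 0.82 and 0.91.

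Marker levels of several cell types moved with these results. In whole aorta, fewer cells of a type and less RNA per cell cannot be told apart. Summed linear signals over the 12 smooth muscle markers, in units of the 75th percentile, were 1250 to 1590 with CaCl2 plus IgG, 1120 to 1750 with CaCl2 and 3530 to 4050 in sham, and all 12 were called lower in both comparisons. Ogn, Cspg4, Hapln1, the basement membrane collagens and the Vcan probe at base 12207 were lower on the same arrays. The Vcan probe at base 1428 was not called. With median scaling the calls of Ogn, of the Vcan probe at base 12207 and of Col4a1 and Col4a2 were lost. For 10 fibroblast markers, without Dcn and Lum, the sums were 343 to 561 with CaCl2 plus IgG, 456 to 559 with CaCl2 and 301 to 385 in sham, and 3 and 4 of the 10 were called higher in these comparisons, 0 lower. For 14 macrophage markers they were 371 to 485 with CaCl2 plus IgG, 375 to 409 with CaCl2 and 237 to 266 in sham. Of these markers, 11 and 10 were called higher, and 0 and 1 lower. Endothelial sums overlapped between the groups, at 111 to 157 with CaCl2 plus IgG, 121 to 153 with CaCl2 and 144 to 169 in sham. Of the 12 endothelial markers, 3 were called higher and 2 lower in each comparison. Of 10 markers of cartilage and bone cells, 7 were higher and 1 lower in both comparisons, on the arrays where Prg4, Acan, Epyc and Kera were higher; their sums were 105 to 153 with CaCl2 plus IgG, 122 to 162 with CaCl2 and 110 to 151 in sham. For 6 fat cell markers the sums were 31.3 to 44.1 with CaCl2 plus IgG, 34.2 to 54.8 with CaCl2 and 61.0 to 103 in sham. With CaCl2 plus IgG, 0 of these 6 were called higher and 5 lower, and with CaCl2 1 was higher and 2 lower. For 4 skeletal muscle markers they were 9.22 to 9.78 with CaCl2 plus IgG, 7.0 to 15.8 with CaCl2 and 40.8 to 52.6 in sham. Only 4 of the 10 listed skeletal muscle markers were tested. In each comparison 1 of them was called higher and 1 lower, so the sums do not speak for every marker. For 12 T and NK cell markers they were 14.4 to 18.3 with CaCl2 plus IgG, 14.4 to 28 with CaCl2 and 7.35 to 9.56 in sham, with 9 called higher in each comparison and 1 lower with CaCl2. For 6 nerve and Schwann cell markers they were 8.53 to 9.49 with CaCl2 plus IgG, 8.14 to 11.9 with CaCl2 and 4.45 to 4.92 in sham. Of these 6, 3 and 2 were called higher in these comparisons, and 0 lower. In each of these 4 cell types the sums on the CaCl2 arrays of both groups did not overlap those on the sham arrays. The part of any of these cell types in the changes of the proteoglycan genes was not tested.

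Similar profiles over the 9 arrays were sought among all tested genes, as the smallest root mean square difference after each gene was centred on its own mean. Marcks and Slc43a2 were nearest to Lum, at 0.142 and 0.153 log2 units beside a median of 0.972 for all genes. Dusp18 and Matn3, the cartilage gene matrilin-3, were nearest to Fmod, at 0.316 and 0.325. Ogn was closest to Zfp418 at 0.124 and then to its chromosome 13 neighbour Omd at 0.161, beside a median of 0.640 for all genes. The Vcan probe at base 12207 was closest to Pfn1 at 0.098 and Ankrd9 at 0.136. Dcn was closest to Cpd and Fn1 at 0.080 each, and Bgn to Mb21d2 at 0.090 and Tpra1 at 0.121. For Prelp they were Itgb4 and Hoxa5, for Aspn Lama2 and Aff2, for Hspg2 Tmem120b and Atxn7l2, and for Has2 Nrg1 and Rarres1. Between Lum and Fmod the difference was 0.552, with 1.31% of genes nearer to Fmod than Lum was and 8.04% nearer to Lum than Fmod was.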

How the data were processed

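Total RNA from 9 samples of aorta was labelled with Cy3 and hybridised to 1-colour Agilent arrays. Scanner files deposited by the authors give the intensity of each spot with background already subtracted, by Feature Extraction 10.7.1.1 per the file headers and 9.5.1.1 per the submitters' processing notes. The authors' deposited series table, also linear intensity and not centred, served as an alternative. All its columns have a median of 29.7 and a log2 SD of 3.68, as quantile-normalized columns would, although its normalization steps are not stated in these sources. It is therefore not counted as independent of the quantile setting. Columns not mapped to a sample numbered 0.

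Control and outlier spots were left out. From log2 of the processed signal, the 75th percentile of the same array was taken off. Probes stayed in when some group had all 3 of its arrays well above background (32183 of 55681; 22148 with a symbol). Of all probes, 27235 were named by accession, 3581 by symbol and 565 by synonym in the RefSeq gene table of GRCm38.p6, 1146 by the file alone, and 23154 had no symbol. The brightest kept probe stood for its gene, giving 16279 genes. Groups, read from the sample titles, entered a single fit in limma 3.58.1 (R 4.3.3, with version 1.17.8 of the data.table package; figures and sums in Python 3.11.15), with 6 residual degrees of freedom, no covariate, and Benjamini-Hochberg adjustment over all genes. The fit was tested on simulated data. The 3 arrays per group limit the precision. Where no array of a group measured a gene well above background, the fold was taken against a set signal. This was the lowest well-above-background signal of each array or the probe's own signal, whichever was higher. For Kera it was the probe's own signal, so its folds are fitted values and not bounds.

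The members and the gene lists were chosen with earlier results of these data known. All 10 members are named with all their probes; from each list, up to 3 called genes per direction and comparison with the largest changes, and for each member the 2 nearest profiles, without Riken, Gm and predicted names. Other settings were median, quantile and normexp processing, the series table, no filter or a filter on all 9 arrays, the mean of kept probes, 2 groups only, array weights, blocks by replicate or slide row, the first slide only, and leaving out each array. The settings are not all separate: the first slide only is the fit without the third sham array. For a gene with a single kept probe, the mean of kept probes leaves its values as they were.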

Additional observations from a re-analysis of the deposited data

How the results depend on the processing

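Median scaling, the slide row as a block, array weights, the first slide only and leaving out arrays moved some counts; the cause was not tested. In CaCl2 plus IgG against sham, 4762 genes were called, 50.9% of them higher; median scaling called 2962 (71.8% higher), array weights 8319, and leaving out 1 array 3015 to 6605, lowest without the second CaCl2 plus IgG array. Of the 10 genes, 4 were called, 2 with median scaling, 2 on the first slide only, and 2 to 4 without 1 array, with 2 for each of the first sham, the third sham, the first CaCl2 plus IgG and the second CaCl2 plus IgG array. In CaCl2 against sham, 5988 genes were called, 47.8% of them higher; median scaling called 4680 (77.3% higher), the slide row block 3387, the first slide only 3910, and leaving out 1 array 3910 to 7348. The second lowest was 3982, without the first CaCl2 array. Without the filter on dim probes 32.9% of the calls were higher. Of the 10 genes, 5 were called, 3 with median scaling, 2 with the slide row block, and 3 to 5 without 1 array, with 3 without the second sham array. In CaCl2 plus IgG against CaCl2, 0 genes were called, and 0 to 2 without 1 array, the 2 being without the first CaCl2 plus IgG array; among the 10 genes it was 0 in all 21 settings. Dcn with CaCl2 turned to 0.50 with quantile normalization and with the series table. The Vcan probe at base 1428, read on its own as a choice made after seeing the data, gave 0.54 with CaCl2 plus IgG and 0.28 with CaCl2, opposite to the brightest probe. Over the list counts of the 3 comparisons, 271 of 2394 recomputed counts moved by over 1.5 times.

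Array numbers do not pair the samples: over 9 same-number pairs the correlation of deviations ran from -0.20 to 0.22, with 3 above 0.1, and 3 arrays correlated best with their own number. With the replicate number as a block, 4648 genes were called in CaCl2 plus IgG against sham, 5734 in CaCl2 against sham and 0 between the CaCl2 groups, with 4, 5 and 0 of the 10 genes.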
